A study of Mus musculus with 2 samples.

Results

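The genes described here are 10 genes that mark the maturation of oligodendrocytes and the myelin sheath: Gpr17, Bcas1, Enpp6, Mbp, Mog, Opalin, Hapln2, Klk6, Il33 and Ptgds. They were chosen by symbol, and each occurs once among the 19059 genes of both count tables. The data are single-cell RNA counts from the hippocampus of C57BL/6 mice of both sexes, 21 months old when treatment began, fed for 3 months with standard chow (control) or with chow holding 0.05% tomatidine. Tomatidine is a steroidal alkaloid of the tomato plant that the study examined in aged animals. Hippocampi of 4 mice per group were pooled into 1 library, so that no test between the groups was possible and no difference between them has a replicate check. Cells were fixed and bound probes were counted by unique molecular identifiers (UMIs), tags that keep copies of 1 molecule from being counted again.

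Oligodendrocytes arise from oligodendrocyte precursor cells (OPCs), which pass through a short committed stage before they stop dividing and wrap axons with myelin. Gpr17, Bcas1 and Enpp6 are known as genes of the committed and newly forming stages, Mbp, Mog, Opalin and Hapln2 encode proteins of myelin or of the node of Ranvier, and Klk6, Il33 and Ptgds differ among mature oligodendrocytes. Mbp mRNA is also known to be carried out of the cell body into the processes that form the sheath, where it is translated.

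The levels given below are CPM, the UMIs of a gene scaled to a common total of UMIs and summed over all cells of a class in 1 library, with 95% intervals that cover counting error only. Probes of different genes bind with different yield, so CPM values are compared between cells for the same gene. The control library held 15912 deposited cells with a median of 7556.5 UMIs, and the tomatidine library 15185 cells with a median of 7891, of which 15115 and 14502 were kept. Between the 2 libraries, 292 cell barcodes were shared. The cells were clustered with the 10 genes left out, and clusters were named from other marker genes. All 19 oligodendrocyte markers were raised in the oligodendrocyte-like clusters, with 3041 control and 2361 tomatidine cells (median 5332 and 4879 UMIs). The OPC-like cluster had all 15 OPC markers raised and held 373 and 341 cells (median 6668 and 5551 UMIs). Its sub-clusters set apart 8 committed precursor-like cells, 5 control and 3 tomatidine, in which 9 of 14 measured markers such as Bmp4 were raised. A further sub-cluster of 56 control and 33 tomatidine OPC-like cells had all 19 oligodendrocyte markers raised and a median of 10335 UMIs per cell. The remaining 312 and 305 cells are called OPC-like precursors here. Among them are sub-clusters that also carry markers of excitatory neurons (80 control and 84 tomatidine cells), astrocytes (17 cells over both libraries) and microglia (6 cells).

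Gpr17 was the gene of OPC-like cells and above all of the committed precursor-like ones. It encodes a G protein-coupled receptor, lies on chromosome 18 and is known to be present for a short time between precursor and myelinating cell. The level was 1352 CPM in control (1304 to 1402) and 1739 CPM in tomatidine OPC-like precursors (1678 to 1801), with a UMI in 82.4% and 83.6% of the cells. At an equal depth of 1500 UMIs per cell, with 33 and 40 shallower cells set aside, these shares were 72.8% and 75.9%. In the committed precursor-like cells the level was 7936 CPM in control (7154 to 8780) and 17215 CPM in tomatidine cells (15670 to 18872). The values rest on 376 UMIs in 5 cells and 455 UMIs in 3 cells, and single cells held between 12 and 295 Gpr17 UMIs. Oligodendrocyte-like cells were lower in both libraries, at 7.66 and 15.1 CPM. Of all Gpr17 UMIs of kept cells, 82.1% in control and 71.3% in the tomatidine library lay in OPC-like cells.

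Bcas1, a gene of cells that begin to myelinate (mm10 chromosome 2, 170346991 to 170427845, minus strand), was present along the whole lineage and highest at the committed stage. Its level in OPC-like precursors was 237 CPM in control and 314 CPM in the tomatidine library. Committed precursor-like cells had 4601 CPM in control and 3746 CPM in the tomatidine library, and every one of the 8 cells had at least 5 Bcas1 UMIs. Oligodendrocyte-like cells without Klk6 had 243 and 247 CPM, and those with Klk6 181 and 205 CPM, near the level of the precursors. The share of oligodendrocyte-like cells with a Bcas1 UMI was 65.8% in control and 68.0% in tomatidine cells, or 28.0% and 31.0% after thinning, with 61 and 68 cells left out.

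Enpp6 encodes a choline-specific glycerophosphodiesterase (chromosome 8, 46986887 to 47096762, plus strand) and is known as a gene of newly forming oligodendrocytes. OPC-like precursors had 20 Enpp6 UMIs in control and 15 in the tomatidine library, levels of 9.13 CPM (5.58 to 14.1) and 8.51 CPM (4.77 to 14.0). The 5 control committed precursor-like cells held 125 Enpp6 UMIs and the 3 tomatidine cells 55, levels of 2638 CPM (2196 to 3144) and 2081 CPM (1568 to 2709). Enpp6 therefore differed between precursors and committed cells by the widest factor among the 3 early genes in both libraries. In mature cells it did not return to the precursor level, with 232 CPM in control and 197 CPM in tomatidine oligodendrocyte-like cells. A UMI was found in 45.5% (43.8 to 47.3) of control and 39.6% (37.7 to 41.7) of tomatidine oligodendrocyte-like cells, and the thinned shares were 22.7% and 19.4%.

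**Figure D1:**
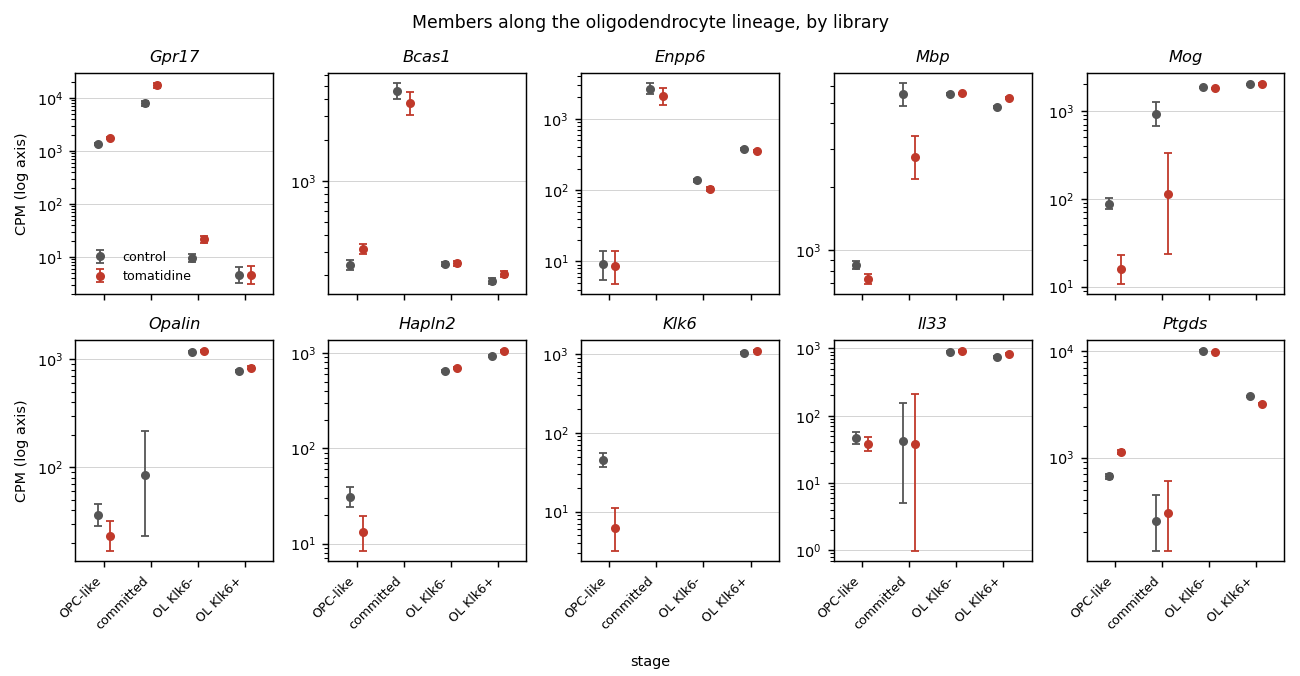
Level of each gene in CPM on a log axis (vertical) at 4 stages of the lineage (horizontal), in the control library (grey) and the tomatidine library (red), with 95% Poisson intervals; sums of 0 UMIs are not drawn. The committed stage holds 5 and 3 cells; Gpr17, Bcas1 and Enpp6 are highest there, while Opalin, Hapln2, Il33 and Ptgds are highest in oligodendrocyte-like cells (OL).

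The 8 committed precursor-like cells show which of the genes were detected together within single cells. In these cells Pdgfra, the receptor gene that marks OPCs, was at 0 UMIs in all 8. The Bmp4 count, a marker that named the group, ran from 1 to 31 UMIs. Their Mbp counts ran from 5 to 127 UMIs, and Mog was found in 7 cells with 1 to 18 UMIs and was 0 in the shallowest one, which had 1675 UMIs. Klk6 and Hapln2 were at 0 in all 8 cells, and Opalin was found in 1 control cell with 4 UMIs. Gpr17, Bcas1 and Mbp were detected in all 8 cells and Enpp6 in 7, the shallowest cell having none. A count of 0 in a single cell only says that the gene was not detected at its depth. At sub-clustering resolutions of 1.0 and 1.5 the same 8 cells stood apart, and 43.9% of control and 45.1% of tomatidine Enpp6 UMIs of the OPC-like cluster lay in them.

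Cells with a high Gpr17 count were also found in other groups. The sub-cluster of OPC-like cells with oligodendrocyte markers held 1 control cell with 389 Gpr17 UMIs. Among OPC-like precursors the highest cell had 58 UMIs in control and 191 in the tomatidine library. Within the oligodendrocyte-like class 3 tomatidine cells and 0 control cells had 20 or more Gpr17 UMIs.

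Mbp was detected in each committed precursor-like cell, while Opalin and Hapln2 were low or at 0 there. Mbp encodes myelin basic protein, which holds the faces of the compacted sheath together, and lies on chromosome 18. Its level was 848 CPM in control and 727 CPM in tomatidine OPC-like precursors, 5467 and 2762 CPM in committed precursor-like cells, and 5208 and 5427 CPM in oligodendrocyte-like cells. Of the 259 Mbp UMIs of the control committed cells, 127 and 67 lay in 2 cells and 8, 28 and 29 in the others. A UMI of Mbp was found in 99.6% of control and 99.9% of tomatidine oligodendrocyte-like cells. Mog, a glycoprotein of the outer surface of the sheath (chromosome 17, 37010743 to 37023398, minus strand), had 88.1 CPM in control and 15.9 CPM in tomatidine OPC-like precursors. In oligodendrocyte-like cells it had 1914 CPM in control and 1885 CPM in the tomatidine library, with a UMI in 98.7% and 97.8% of the cells.

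Opalin encodes a protein of the paranodal loops (chromosome 19, 41061710 to 41077113, minus strand). It was at 36.5 CPM in control and 23.3 CPM in tomatidine OPC-like precursors, against 1021 and 1055 CPM in oligodendrocyte-like cells. Hapln2, a link protein of the matrix at the node of Ranvier (chromosome 3, 88021750 to 88027583, minus strand), had 31.0 and 13.1 CPM in precursors and 756 and 827 CPM in oligodendrocyte-like cells. Both genes were therefore more than 20 times higher in oligodendrocyte-like cells than in precursors of the same library.

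Klk6, Il33 and Ptgds followed the mature stage, and Klk6 and Ptgds were shared out unevenly among mature cells. Klk6 encodes a secreted serine protease of the kallikrein family (chromosome 7, 43824499 to 43832030, plus strand). Il33 encodes a nuclear cytokine of the interleukin-1 family that is released from damaged cells (chromosome 19, 29925114 to 29960718, plus strand). Ptgds encodes the lipocalin-type prostaglandin D synthase (chromosome 2, 25466709 to 25470046, minus strand). Oligodendrocyte-like levels of Klk6 were 401 CPM in control (392.2 to 410.0) and 412 CPM in the tomatidine library (402 to 423). For Il33 they were 842 and 890.4 CPM, with a UMI in 84.1% and 85.2% of the cells. Ptgds had 7678 and 7328 CPM and a UMI in 97.0% and 97.9% of the cells. In OPC-like precursors Il33 was at 47.0 and 38.0 CPM and Ptgds at 669 and 1131 CPM.

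Klk6 was found in a part of the oligodendrocyte-like cells of each library. At least 1 UMI was counted in 892 of 3041 control cells, 29.3% (exact binomial interval 27.7 to 31.0), and in 675 of 2361 tomatidine cells, 28.6% (26.8 to 30.5). The shares differed by -0.743 points, with a Newcombe interval of -3.17 to 1.70 that covers the counting of cells in these libraries and not the spread between animals. Klk6+ cells were deeper than Klk6- cells, with a median of 6865.5 against 4809 UMIs in control and of 6583 against 4363 in the tomatidine library. Thinned to 1500 UMIs, the shares were 17.7% and 18%. With 2 UMIs required they were 20.1% and 20.2%, and with 20 UMIs 3.39% and 3.56%.

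The split at 1 UMI cut a continuous range. Of the positive cells, 282 in control and 197 in the tomatidine library had exactly 1 UMI, and the medians were 3 and 4 UMIs, while the highest cells held 208 and 158. The 103 control and 84 tomatidine cells with 20 or more UMIs carried 55.7% and 53.7% of all Klk6 UMIs of the class. Free RNA, released before cells were captured, can put a UMI in a cell that does not make it. In excitatory neuron-like cells a Klk6 UMI was found in 2.24% of control and 1.95% of tomatidine cells at median depths of 15363 and 13977 UMIs. At the neuron level of Klk6, 1.23% of control and 1.34% of tomatidine oligodendrocyte-like cells would hold a UMI, and at the astrocyte level 3.53% and 5.58%, each below the observed share. Other classes had higher Klk6 levels, for which no expected share was computed. Endothelial-like cells had 33.3 CPM in control and 11.7 CPM in the tomatidine library, and control choroid plexus-like cells 23.9 CPM. Ependymal-like cells had 48.2 and 105.5 CPM, with a Klk6 UMI in 18.1% of 182 control and 20.3% of 158 tomatidine cells.

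The Klk6 split divided the other genes in the same way in both libraries. Background shares are given first: by at least 2-fold, 0.83% of 11331 genes with enough UMIs were higher and 0.68% lower in control Klk6+ cells, and 1.15% of 11143 genes were higher and 2.49% lower in tomatidine Klk6+ cells. Of the 9 genes other than Klk6, which the split itself sets, 1 was higher (Enpp6) and 2 were lower (Gpr17 and Ptgds) by this measure in each library. Enpp6 was at 138 CPM in Klk6- and 378 CPM in Klk6+ control cells, a log2 ratio of 1.46 (1.37 to 1.54). In the tomatidine library it was 103 and 353 CPM, a log2 ratio of 1.78 (1.66 to 1.89), and 99.7% of genes had a lower ratio in either library. Thinning to 1500 UMIs and a threshold of 2 UMIs kept Enpp6 past 2-fold in both libraries.

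Ptgds went the other way. Its level was 10170.0 CPM in Klk6- and 3784 CPM in Klk6+ control cells, a log2 ratio of -1.43 (-1.45 to -1.41). The tomatidine library had 9823 and 3221 CPM, a log2 ratio of -1.61 (-1.63 to -1.59). Gpr17 had 114 UMIs in Klk6- and 35 in Klk6+ control cells, a log2 ratio of -1.06 (-1.65 to -0.50), and 197 and 26 UMIs in the tomatidine library, a log2 ratio of -2.20 (-2.85 to -1.61). Of the Gpr17 UMIs of the class, 43 of 149 in control and 123 of 223 in the tomatidine library were in its 5 highest cells. Opalin was lower in Klk6+ cells without reaching 2-fold, at 781 against 1175 CPM in control and 838 against 1187 CPM in the tomatidine library. Hapln2 was higher, at 919 against 652 CPM and 1040 against 697 CPM. The log2 ratios of Mog were 0.12 and 0.17, of Mbp -0.20 and -0.07, of Il33 -0.26 and -0.13 and of Bcas1 -0.42 and -0.27 in control and tomatidine cells. With these settings the sheath genes Mbp and Mog thus had nearly the same level with and without Klk6, while other settings gave wider ratios.

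Ptgds, Enpp6 and Opalin differed stepwise along the Klk6 range, except that Ptgds in tomatidine cells and Opalin in both libraries were no lower at the highest step than at the one before. Ptgds was 7535 CPM in control cells with 1 Klk6 UMI, 4315 CPM with 2 to 4, 1982 CPM with 5 to 19 and 1435 CPM with 20 or more, and 7037, 3061, 1845 and 1967 CPM in tomatidine cells. Enpp6 was 229, 333, 460.4 and 489 CPM in control and 196, 324, 398 and 456 CPM in tomatidine cells over the same ranges. Opalin was 991, 770, 679 and 703 CPM in control cells and 1116, 891, 663 and 797 CPM in tomatidine cells. Cells with 20 or more Klk6 UMIs were also the deepest, with medians of 13153 and 12888 UMIs, and the part of depth in these steps was not tested. A Ptgds UMI was found in 89.3% of control and 91.7% of tomatidine cells of that range, against 75.5% and 79.7% of excitatory neuron-like cells at median depths of 15363 and 13977 UMIs.

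**Figure D2:**
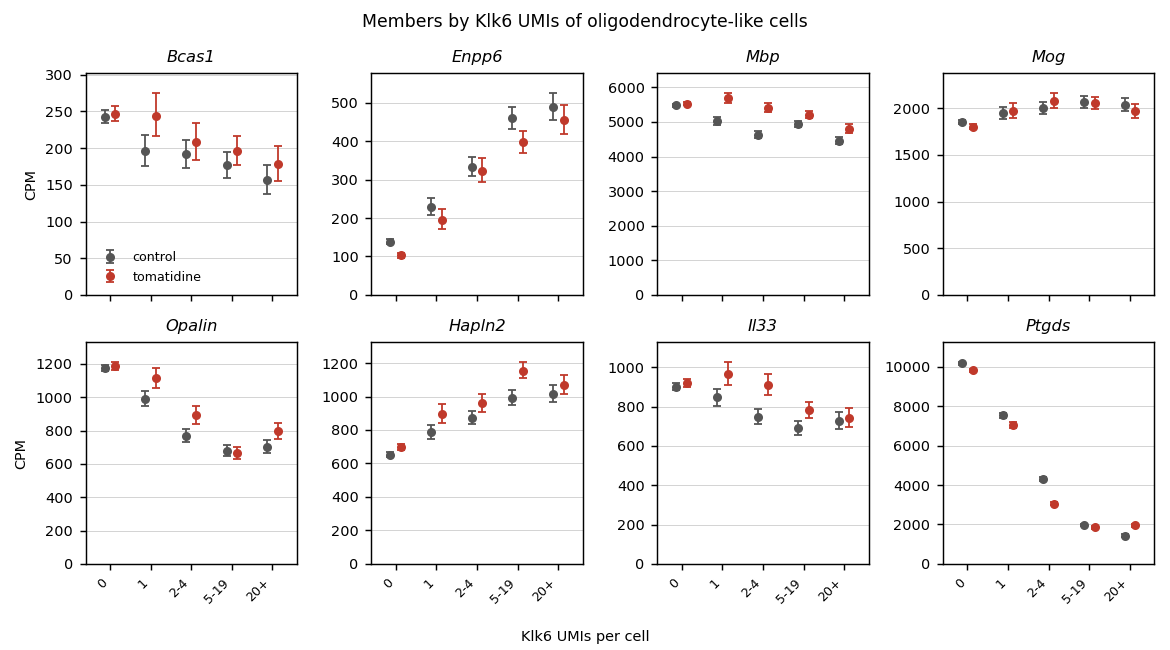
Level of 8 genes in CPM (vertical, from 0) in oligodendrocyte-like cells with 0, 1, 2 to 4, 5 to 19 and 20 or more Klk6 UMIs (horizontal), in control (grey) and tomatidine (red) cells with 95% Poisson intervals. From 0 to 5 to 19 Klk6 UMIs Ptgds is lower and Enpp6 higher at each step in both libraries, while Mog stays between 1800.2 and 2076 CPM.

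Clusters that were found without any of the 10 genes differed in the same direction as the Klk6 split for Enpp6 and Ptgds, but not for Mbp, Opalin and Il33. Cluster 0 held 2055 control and 1431 tomatidine cells with a Klk6 level of 232 and 219 CPM, and cluster 3, led by Trf, Gjb1 and Apod, held 932 and 891 cells with 623 and 623 CPM. Median depths were 4129 and 3562 UMIs in cluster 0 and 8087 and 7086 in cluster 3, and the part of depth was not tested. Enpp6 was 180 against 298 CPM in control and 148 against 258 CPM in tomatidine cells of clusters 0 and 3. Il33 was 741 against 1009 CPM and 757 against 1090.1 CPM. For Ptgds the levels were 8988 against 6585 CPM and 8662 against 6712 CPM. Opalin was 1025 against 1075 CPM and 1037 against 1159 CPM, higher in cluster 3. Mbp was also higher there, at 5248 against 5391 CPM and 5418 against 5912 CPM. Klk6+ cells made up 21.1% and 19.2% of cluster 0 and 46.6% and 44.2% of cluster 3. In the small cluster 32 they were 25 of 54 control and 6 of 39 tomatidine cells, which makes -30.9 points (-46.3 to -11.8) from few cells. Il33 was higher in the cluster with more Klk6, but not in the Klk6+ cells of the whole class.

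Among 10231 genes with at least 100 UMIs in each library, the genes with the highest Klk6+ over Klk6- ratio were Art3, Adgrg6, Slc9b2, Nkx2-9, Piezo2, Bace2, Pqlc3, Slc13a3, Nid1 and Acy3. Their ranking used the less extreme of the 2 libraries. Art3, a gene of the ADP-ribosyltransferase family, had a log2 ratio of 3.69 in control (3.14 to 4.29) and 4.57 in tomatidine cells (3.65 to 5.66). Adgrg6, an adhesion G protein-coupled receptor, had 3.37 and 4.47. The transcription factor gene Nkx2-9 had 2.59 and 4.15, and Piezo2, a mechanically gated ion channel, 2.54 and 3.77. The lowest were Ephb2, Npr1, Ptgds, Phlda1, Fbn2, Gabrr2, Ltbp4, Pdgfc, Hif3a and Lrp4. Ephb2, an ephrin receptor, had log2 ratios of -1.60 and -1.68, and Npr1, a natriuretic peptide receptor, -1.79 and -1.51. Ptgds was the third lowest and had far more UMIs than the others at that end.

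Genes of the wider pathway were read from 6 lists. Over all genes 0.83% in control and 1.15% in the tomatidine library were at least 2-fold higher in Klk6+ cells, and 0.68% and 2.49% lower. Of the 14 measured genes of mature oligodendrocyte subtypes with enough UMIs, 6 were at least 2-fold higher in Klk6+ cells and 0 lower in either library, with median log2 ratios of 0.61 in control and 0.80 in tomatidine cells against -0.07 and -0.10 over all genes. S100b, a calcium-binding protein, had 98.5 against 326 CPM in control (log2 1.73) and 86.3 against 396 CPM in tomatidine cells (log2 2.20). Hopx had log2 ratios of 1.45 and 2.13, and at the other end Jph4 had -0.38 and -0.65 and Qdpr -0.37 and -0.32. In the list of myelin membrane and structure genes, 0 of 23 in control and 1 of 23 in tomatidine cells were 2-fold higher and 0 lower. Gsn, the actin-severing protein gelsolin, had log2 ratios of 0.82 and 1.08, Gjb1, a gap junction protein, 0.60 and 0.82, and Mal, a proteolipid, -0.31 and -0.28. All 14 lipid synthesis genes stayed within 2-fold in both libraries, with Gltp, a glycolipid transfer protein, highest at 0.47 and 0.65. Of 13 lineage transcription factors, 0 in control and 1 in tomatidine cells passed 2-fold: Zfp488 was lower, at -0.91 and -1.15, while Nkx2-2 had 0.26 and 0.65. Among committed precursor genes 1 of 10 in control and 2 of 10 in tomatidine cells were lower, with Itpr2 at -1.06 and -1.35. All genes with enough UMIs that inhibit or induce differentiation, 14 in control and 13 in tomatidine cells, stayed within 2-fold, with medians of -0.19 and -0.49. The muscarinic receptor genes were at the low end, Chrm3 at -0.62 in control and Chrm1 at -0.84 in tomatidine cells.

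The 250 bases before the RefSeq start are shown for the 2 genes with more UMIs in Klk6+ cells, Klk6 and Enpp6, and for 2 with fewer, Ptgds and Opalin. Promoter sequences were taken from RefSeq on GRCm38.p6 and were matched for 7 of the 10 genes. The gene limits printed above come from another annotation, GENCODE, and can differ from these starts. By those limits the Ptgds window lay wholly inside the gene, and the Klk6 window lay partly inside it. They are written 5′ to 3′ on the strand of the gene, with capitals for the letters of 3 motif groups searched on both strands: ACAAAG and ACAATG (known core letters of Sox factors such as Sox10), CTGGCAC and CTGGTAC (letters bound by Myrf) and CAGCTG (an E-box). The windows are chr7:43824294-43824543 (plus strand) for Klk6, chr8:46986637-46986886 (plus strand) for Enpp6, chr2:25469750-25469999 (minus strand) for Ptgds and chr19:41077114-41077363 (minus strand) for Opalin.
Klk6: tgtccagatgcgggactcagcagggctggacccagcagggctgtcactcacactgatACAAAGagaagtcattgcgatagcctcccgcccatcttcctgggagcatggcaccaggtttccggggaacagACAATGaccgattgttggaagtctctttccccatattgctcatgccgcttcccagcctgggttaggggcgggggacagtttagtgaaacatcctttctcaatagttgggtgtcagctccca
Enpp6: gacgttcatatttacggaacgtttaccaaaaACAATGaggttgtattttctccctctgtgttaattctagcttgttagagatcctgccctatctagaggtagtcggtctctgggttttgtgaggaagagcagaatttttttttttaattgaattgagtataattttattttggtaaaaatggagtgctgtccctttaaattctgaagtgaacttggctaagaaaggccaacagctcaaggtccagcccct
Ptgds: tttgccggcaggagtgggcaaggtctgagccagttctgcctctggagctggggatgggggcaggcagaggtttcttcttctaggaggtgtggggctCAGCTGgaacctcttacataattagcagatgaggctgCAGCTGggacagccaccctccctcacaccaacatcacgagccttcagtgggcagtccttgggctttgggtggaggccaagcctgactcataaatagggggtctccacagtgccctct
Opalin: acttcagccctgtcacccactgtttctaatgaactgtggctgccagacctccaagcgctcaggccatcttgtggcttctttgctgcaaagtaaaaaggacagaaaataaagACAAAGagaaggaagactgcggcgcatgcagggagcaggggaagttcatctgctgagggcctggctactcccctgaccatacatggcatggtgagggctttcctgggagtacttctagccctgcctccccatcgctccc
Klk6 held ACAAAG starting 193 bases and ACAATG starting 121 bases before its start, Enpp6 held ACAATG at 219 and Opalin ACAAAG at 139. Ptgds held CAGCTG at 154 and 117 bases and no Sox letters. Of 32851 windows of the same length, 25.2% held ACAAAG or ACAATG, 5.93% CTGGCAC or CTGGTAC and 13% CAGCTG. Of the matched genes not shown, Mog held CTGGTAC, Hapln2 held letters of all 3 groups and Il33 of none. For Klk6, which has 2 annotated starts, the start nearest to the 5′ end of the gene was used. A match of letters is a description and not a binding site.

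Between the tomatidine and the control library, oligodendrocyte-like cells had nearly equal levels of the genes of the mature cell with the main settings. A gene was counted as higher or lower past 1.2-fold, a log2 ratio of 0.26. Of all 12017 genes that reached 50 UMIs, 15.9% lay above and 3.99% below this fold, and the median log2 ratio was 0.06. Of the genes past the fold 79.9% were higher, against 65.3% when the libraries were scaled by the median of ratios. Of the 10 genes 1 was higher (Gpr17) and 0 were lower. Log2 ratios of the mature genes were 0.06 for Mbp (0.05 to 0.07), -0.02 for Mog (-0.04 to 0.00), 0.05 for Opalin (0.02 to 0.08), 0.13 for Hapln2 (0.09 to 0.16), 0.04 for Klk6 (-0.01 to 0.09), 0.08 for Il33 (0.05 to 0.11) and -0.07 for Ptgds (-0.08 to -0.06). Bcas1 had 0.08 (0.01 to 0.14). Enpp6 was the lowest of the 10, at -0.23 (-0.30 to -0.17), and 5.08% of genes had a lower ratio.

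Gpr17 in this class had 149 UMIs in control and 223 in the tomatidine library, a log2 ratio of 0.98 (0.67 to 1.29). Without the 5 highest cells of each library the levels were 5.45 and 6.77 CPM, so that most of the difference lay in a few cells. Astrocyte-like cells, outside the lineage, had 8.31 and 15.5 Gpr17 CPM, excitatory neuron-like cells 0.88 and 1.13 CPM and microglia-like cells 5.49 and 2.83 CPM. The part of free RNA in the Gpr17 counts of this class was not tested. For Enpp6 the same step left 225 and 186 CPM, close to the levels with all cells.

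In Klk6- cells the 2 genes past the fold were Gpr17 at 1.16 (0.82 to 1.5) and Enpp6 at -0.42 (-0.54 to -0.31), where 19.6% of genes were higher and 4.98% lower (79.7% of those past the fold higher, 65.2% under the median of ratios). In Klk6+ cells 0 of the 10 genes passed the fold, where 11.8% of genes were higher and 7.81% lower. There Enpp6 was 378 and 353 CPM, a log2 ratio of -0.10 (-0.19 to -0.02), and Ptgds 3784 and 3221 CPM, a ratio of -0.23 (-0.26 to -0.21). The mature genes Mbp, Hapln2 and Il33 had 0.14, 0.18 and 0.16.

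Several mature genes were lower in tomatidine than in control cells of the whole OPC-like class. Over 10688 genes, 16.4% were higher and 13.2% lower. Of the 10 genes 1 was higher, Gpr17 at 0.32 (0.25 to 0.38), and 6 were lower. Klk6 had 340 UMIs in control and 102 in the tomatidine library, a log2 ratio of -1.26 (-1.59 to -0.93). A single cell held 68 of the control and another 71 of the tomatidine UMIs, so that this ratio rests on few cells. For Mog the ratio was -0.80 (-0.96 to -0.65), for Enpp6 -0.74 (-1.06 to -0.43), for Hapln2 -0.66 (-0.92 to -0.41), for Opalin -0.62 (-0.82 to -0.42) and for Il33 -0.27 (-0.48 to -0.06). Summed oligodendrocyte markers in the class, 19 genes that were all detected, were 17051 CPM in control and 9815 CPM in the tomatidine library. The OPC-like cells with oligodendrocyte markers, 56 and 33, carried 79.0% of control and 93.3% of tomatidine Mog UMIs of the class, and 86.8% and 86.2% of its Opalin UMIs. Their part in these ratios was not tested.

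Among OPC-like precursors, with those cells and the committed ones set aside, 15.8% of 10292 genes were higher and 14.5% lower. Gpr17 was 1.29-fold higher at 0.36 (0.29 to 0.44), Bcas1 had 0.41 (0.23 to 0.58) and Ptgds 0.76 (0.66 to 0.86). Of the 9 genes with enough UMIs these 3 were higher and 5 were lower. Mog was lower at -2.47 (-3.10 to -1.89), Klk6 at -2.86 (-3.90 to -1.95), Hapln2 at -1.25 (-2.0 to -0.55) and Opalin at -0.65 (-1.23 to -0.09). Il33 was past the fold at -0.31 with an interval that includes 0 (-0.77 to 0.15), and Mbp stayed within it at -0.22. A single control cell carried 68 of the 99 Klk6 UMIs, and without the 5 highest cells 10 control and 3 tomatidine UMIs were left. Mog without its 5 highest cells had 110 control and 19 tomatidine UMIs, so the difference of Mog did not lie in those cells alone. Without the same number of highest cells Hapln2 had 16 and 13 UMIs, levels of 7.30 and 7.38 CPM, so that its difference lay in those cells. Opalin then had 45 and 31 UMIs, 20.5 and 17.6 CPM. Ptgds had 940 of 1465 control and 1441 of 1992 tomatidine UMIs in 5 cells. Without them 525 and 551 UMIs were left, levels of 239.6 and 312.7 CPM, still higher in the tomatidine library. Without the sub-clusters that carry markers of another class, the log2 ratios over OPC-like cells were 0.32 for Opalin and 0.42 for Il33, opposite in sign to those over all of them, while Mog was at -2.26. The part of these sub-clusters in the differences was not tested.

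**Figure D3:**
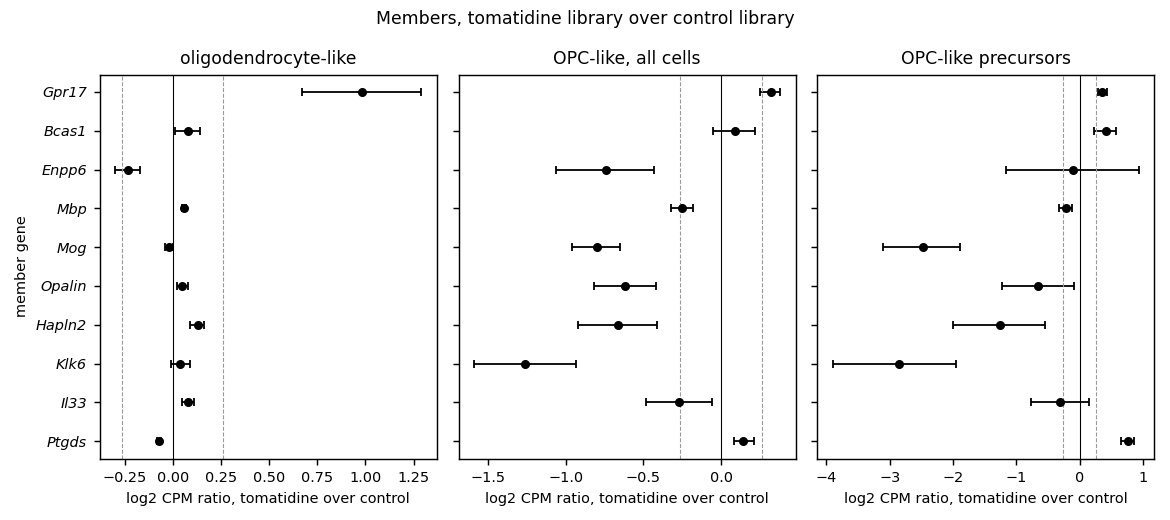
Log2 CPM ratio of the tomatidine over the control library (horizontal) for each gene (vertical), with 95% counting intervals, in oligodendrocyte-like cells, all OPC-like cells and OPC-like precursors; dashed lines mark 1.2-fold. The panels have different scales: mature genes lie within 0.13 of 0 in oligodendrocyte-like cells, while Mog and Klk6 lie at -0.80 and -1.26 in all OPC-like cells. In that class 1 tomatidine cell holds 71 of the 102 Klk6 UMIs.

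The lists of other genes moved as follows between the libraries. In oligodendrocyte-like cells 0 of 13 lineage transcription factors passed 1.2-fold, with Tcf7l2 highest at 0.25 and Nkx6-2 lowest at -0.15. Of 23 myelin membrane and structure genes 1 was lower, Gsn at -0.29 (-0.32 to -0.25), and the list's median was -0.04 against 0.06 over all genes. All 14 lipid synthesis genes stayed within the fold, from Cyp51, a sterol demethylase, at 0.11 to Ugt8a, which makes galactosylceramide, at -0.23. Of 15 mature subtype genes 2 were lower, Apod, an apolipoprotein, at -0.40 (-0.41 to -0.39) and Hopx at -0.28. Over all genes of this comparison 15.9% were higher and 3.99% lower. Of 12 committed precursor genes 7 were higher and 0 were lower, the median being 0.28 against 0.06 over all genes. They were led by Cemip2 at 0.78 and Prom1 at 0.61, both from under 110 UMIs per library. The part of free RNA and of scaling in these list counts was not tested. Of 15 inhibitors and inducers of differentiation 5 were higher, led by Nrg1 at 0.84 (0.35 to 1.33) from 62 and 84 UMIs.

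In all OPC-like cells 18 of 23 myelin membrane and structure genes were lower and 0 higher, with a median of -0.45 against 0.03 over all genes. Of all genes there 16.4% were higher and 13.2% lower. Cldn11, a claudin of the sheath, was lowest at -1.14 (-1.23 to -1.04). Among OPC-like precursors 14 of 23 were lower, with a median of -0.44 against 0.01, where 14.5% of all genes were lower. Of the lipid synthesis genes 6 of 14 were lower in all OPC-like cells and 3 of 14 in precursors, with Aspa at -0.94 in all of them. Of 13 transcription factors 3 were lower and 2 higher in all OPC-like cells: Nkx6-2 and Myrf, both factors of mature oligodendrocytes, had -0.74 and -0.72, and Sox8 had 0.38. The committed precursor genes had a median of 0.06 there, 2 of 12 being higher and 0 lower.

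Outside the lineage the genes were found at unequal percents of their oligodendrocyte-like level. In excitatory neuron-like cells the level as a percent of that in oligodendrocyte-like cells of the same library was 5.2% for Mbp and 5.11% for Bcas1 in control, and 5.40% and 5.33% in the tomatidine library. For Mog it was 0.681% and 0.647%, for Hapln2 0.594% and 0.589%, for Klk6 0.485% and 0.527% and for Opalin 0.895% and 0.919%. The part of free RNA in these counts was not tested. A Mog UMI was found in 16.1% of control excitatory neuron-like cells at a median depth of 15363 UMIs, and a Mbp UMI in 91.7%. Thinned to 1500 UMIs the shares were 2.22% and 33.1%, against 91.8% and 99.6% in oligodendrocyte-like cells.

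In astrocyte-like cells the percent of the oligodendrocyte-like level was also unequal between the genes. The Mbp level there was 2025 CPM in control and 2178 CPM in the tomatidine library, 38.9% and 40.1% of the oligodendrocyte-like level. For Bcas1 it was 137 and 146 CPM, 62.7% and 63.1%. By contrast Mog stood at 2.51% and 2.62%, Hapln2 at 2.53% and 2.34% and Enpp6 at 2.19% and 2.14%. Il33 was in between, at 9.38% and 9.67%. Of the Mbp UMIs of kept cells 9.56% in control and 14.7% in the tomatidine library lay in astrocyte-like cells, which numbered 1826 and 2308. In the same cells the 23 myelin membrane and structure genes had medians of 6.64% in control and 6.47% in the tomatidine library. Omg was the highest of them at 60% and 65.1%. Mobp, a myelin protein gene, had 29.8% and 30.3% of its oligodendrocyte-like level. Mag, a myelin-associated glycoprotein and the lowest of the list in control, had 2.23% and 2.41%.

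A cluster without a name, cluster 5 with 627 control and 519 tomatidine cells and medians of 882 and 729 UMIs, had Mbp and Bcas1 above the oligodendrocyte-like level. Mbp was 9374 CPM there in control (180.0% of the oligodendrocyte-like level) and 8004 CPM in the tomatidine library (148%), and Bcas1 694 and 504 CPM (317% and 218%). Mog in these cells was 173 and 133 CPM, 9.05% and 7.06%, and Klk6 34.9 and 32.8 CPM. Mobp was among the genes that led this cluster and is given for its level alone, 170% and 125%. It was the highest of the 23 myelin membrane and structure genes there, whose medians were 15.1% and 13.6%. Mbp and Bcas1 were thus high in these shallow cells where Mog, Klk6 and Hapln2 were each under 10% of the oligodendrocyte-like level.

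**Figure D4:**
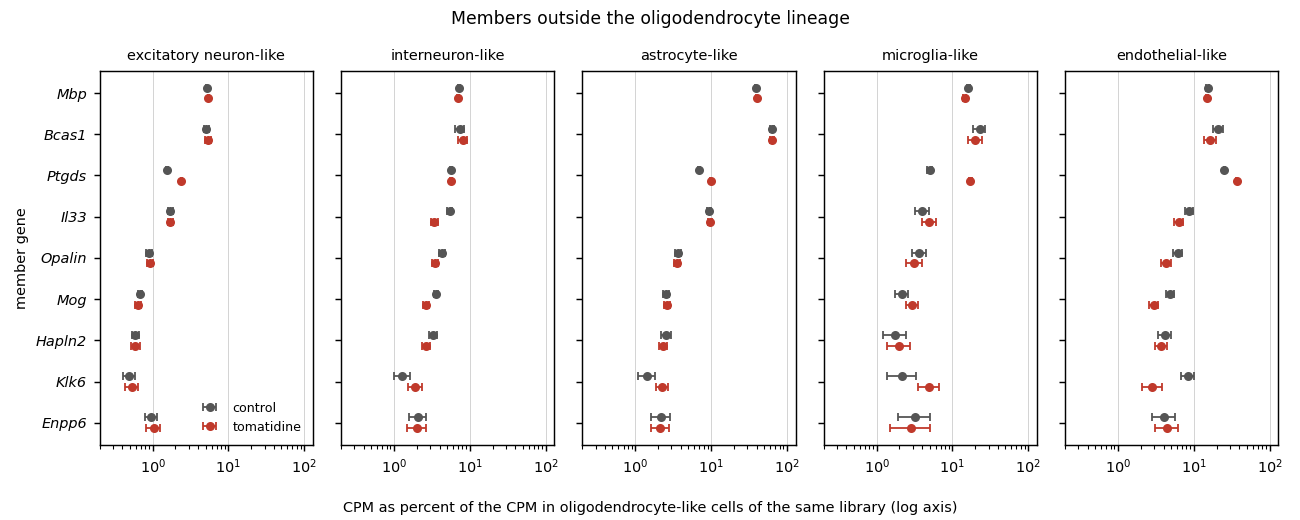
CPM of 9 genes in 5 other classes as a percent of the CPM in oligodendrocyte-like cells of the same library (horizontal, log axis), in control (grey) and tomatidine (red) cells with 95% counting intervals. Mbp and Bcas1 lie near 39% and 63% in astrocyte-like cells, where Mog, Hapln2 and Enpp6 lie near 2%.

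Ptgds had a second source. Meningeal-like cells, 283 in control and 526 in the tomatidine library, held 65004 and 84979 CPM, and they carried 28.6% of control and 49.5% of tomatidine Ptgds UMIs of kept cells. Oligodendrocyte-like cells carried 45.1% and 26.0%. Choroid plexus-like cells, 357 and 35 in number, had 2924 and 3597 CPM. In microglia-like cells Ptgds was 383 CPM in control and 1262 CPM in the tomatidine library, of which 1862 of 2681 tomatidine UMIs lay in 5 cells. Without those cells and their control counterparts, the levels were 279 and 386 CPM. Excitatory neuron-like cells had 118 and 176 CPM, astrocyte-like cells 534 and 720.5 CPM and endothelial-like cells 1950 and 2708 CPM, each higher in the tomatidine library. Single endothelial-like cells held 2743 of 6847 control and 2307 of 10441 tomatidine UMIs. A single tomatidine astrocyte-like cell held 1162 of 9543, and a single control neuron-like cell 1088 of 7664. Ptgds was lower in the tomatidine library in macrophage-like cells (1539 and 1383 CPM), interneuron-like cells (438 and 414 CPM) and ependymal-like cells (2289 and 2015 CPM). Within oligodendrocyte-like cells, where summed meningeal markers were at 39.9 and 49.0 CPM, Ptgds was not higher with tomatidine. Summed choroid plexus markers in the same cells were 448 CPM in control and 79.3 CPM in the tomatidine library, and their part in any ratio was not tested.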

How the data were processed

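Hippocampal cells of 1 control and 1 tomatidine library, each from 4 pooled mice, were analysed from UMI count matrices deposited by the authors. Counts were made with Cell Ranger on mm10: the submitters' processing notes give version 8.0.0, the matrix header 7.1.0. No other unit was used, and the whole table of 19059 genes entered each comparison. Cells with at least 500 UMIs, 250 genes, a complexity of 0.8 and at most 20% mitochondrial UMIs were kept. Scrublet (scanpy 1.11.5) called 0 and 2 doublets by its own threshold, which was taken as not having worked, so the 2% of cells with the highest scores were removed per library (308 and 296). Cells were integrated and clustered with Seurat 5.3.0 in R 4.3.3 (2000 variable genes, 30 components, resolution 0.8, 37 clusters), with the 10 genes left out. In all 82 genes were left out: the 10, listed genes that were not class markers, Y-linked genes, and Xist and Tsix. Clusters were named from marker genes by a rule written after the clusters had been seen, and a cluster mixing microglial and oligodendrocyte markers was set aside.

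UMIs were summed per class and library. Intervals are at 95% and cover counting error only: exact Poisson for sums, exact conditional binomial for ratios, Clopper-Pearson for shares and Newcombe for their difference. Ratios were read for genes with at least 50 UMIs, past 1.2-fold between libraries and 2-fold between Klk6+ and Klk6- cells (at least 1 Klk6 UMI or none). Shares were repeated at an equal depth of 1500 UMIs per cell. Calculations used Python 3.11.15 and scipy 1.17.1, and scripts were tested on simulated data.

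With 1 library per group there was no test between groups, and the animals cannot be told apart from the diet. The genes named are the 10, the 2 highest and 2 lowest of each list, of which some are printed, and the 10 highest and 10 lowest for the Klk6 split. The 10 genes and the lists were chosen with earlier results of these data known. Alternatives were other cell filters, resolutions, scalings, thresholds, a marker gate, and single clusters. Promoters of Gpr17, Bcas1 and Mbp were not analysed here.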

Additional observations from a re-analysis of the deposited data

Results flagged for a closer look

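For 5 genes the log2 ratio of tomatidine over control had opposite signs in oligodendrocyte-like and OPC-like cells, with each counting interval on 1 side of 0. The difference between the classes was not tested, since each library stands for 1 pool. Mbp had 0.06 in oligodendrocyte-like and -0.25 in OPC-like cells. Opalin had 0.05 and -0.62, and Hapln2 0.13 and -0.66. Il33 had 0.08 and -0.27, and Ptgds -0.07 and 0.14. Scaled by the median of ratios, the oligodendrocyte-like values were 0.00 for Mbp, -0.01 for Opalin, 0.07 for Hapln2, 0.02 for Il33 and -0.12 for Ptgds, so that the opposite signs of Mbp and Opalin were lost. Il33 was then so near 0 that its sign is not settled, since intervals are not given for this scaling. Among OPC-like precursors, without the cells that carried oligodendrocyte markers, the ratios were -0.22 for Mbp, -0.65 for Opalin, -1.25 for Hapln2, -0.31 for Il33 and 0.76 for Ptgds.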

How the results depend on the processing

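No paired analysis was possible because each group was 1 library, and for the same reason no replicate could be left out. Of 91 values of the counts of genes past the fold and the Klk6 share, 80 stayed within the set limits and 11 moved. In Klk6+ cells 0 genes past the fold became 1 with the stricter cell filter, 1 with the neuron level taken off, 1 in cluster 3 alone, 2 with the mean CPM over cells, 2 with thinning and 3 with the marker gate, which names each cell by its own markers. In oligodendrocyte-like cells 1 became 2 under the median of ratios, 2 in cluster 0 alone and 6 with the marker gate. Over all settings in this class, the lowest values were -1.25 for Gpr17, -0.66 for Enpp6, -0.38 for Klk6 and -0.35 for Mog. Bcas1 went down to -0.29 and Ptgds to -0.27, also past the fold. Only Gpr17 rose past it in any setting. The gate also gave 1 in place of 7 in OPC-like cells and 7 in place of 2 in Klk6- cells. Of 758 values for single genes 509 stayed, 240 moved and 9 reversed. With the gate Gpr17 had -1.25 in oligodendrocyte-like, -0.10 in OPC-like and -1.36 in Klk6- cells, and 0.12 for Klk6+ over Klk6- tomatidine cells. In OPC-like cells Il33 was 0.07 with the stricter filter, 0.11 with the mean CPM and 0.42 without sub-clusters carrying another class's markers, where Opalin was 0.32, and Enpp6 was 0.48 at resolution 1.5. The cause was not tested. Taking off the neuron level moved the median of all genes from 0.06 to -0.06 in oligodendrocyte-like cells (42.3% of genes past the fold then higher) and to -0.11 in Klk6- cells (35.9%). Enpp6 stayed between 1.26 and 2.10 in control and 1.55 and 2.61 in tomatidine cells for the Klk6 split, and Ptgds between -1.89 and -0.76 and between -2.10 and -0.77. For the same split Mog lay between 0.05 and 0.82 in control and between -0.02 and 0.94 in tomatidine cells. Mbp lay between -0.23 and 0.33 and between -0.21 and 0.60. Hapln2 reached 1.18 and 1.34, past 2-fold. Opalin, Il33 and Bcas1 had values on both sides of 0, with highest values of 0.13 and 0.23, 0.42 and 0.61, and 0.07 and 0.39. The single-cluster and sub-cluster settings were chosen after seeing the data.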
